A study of Homo sapiens with 59 samples.

Results

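The H2AK119ub peaks of water-treated NCI-H661 lines were set against the H3K27me3 peaks of the same lines, to find where the 2 Polycomb marks lay together and where each lay alone. The members were all 12 peak lists of these marks in water (H2O), of 59 samples in the series, 51 of which had a peak list. They form 6 pairs: 6 H2AK119ub lists against 6 H3K27me3 lists, matched by line and by replicate number (1 or 3). NCI-H661 is a long-established cell line from a large cell carcinoma of the lung. The study describes it as SMARCA4-deficient and as expressing both DPPA2 and DPPA4, chromatin factors that normally act in early embryos. The lines shDPPA2, shDPPA4 and shDPPA2+4 carry doxycycline-inducible hairpins against DPPA2, DPPA4 or both on PiggyBac transposons, and each is a sorted bulk population rather than a clone. The shDPPA2+4 line was made from the shDPPA2 line. In the H2O samples the hairpins were not induced, since water was the vehicle, given for 7 days. The same lines given 2 µg/ml doxycycline (DOX) for 7 days, which induces the hairpins, serve below as a comparison. H3K27ac and SUZ12 were read from parental NCI-H661 cells given DMSO for 1 day, which differ from the hairpin lines in line, vehicle and treatment time. Mouse chromatin was spiked into every immunoprecipitation, and its reads were not used here.

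H2AK119ub is a ubiquitin placed on histone H2A by Polycomb repressive complex 1 (PRC1), and H3K27me3 is a trimethylation placed on histone H3 by Polycomb repressive complex 2 (PRC2). In the textbook case both cover the CpG-rich promoters of silent developmental genes, where canonical PRC1 reads H3K27me3 through its CBX subunits and PRC2 can be drawn to H2AK119ub through JARID2 and AEBP2. Variant PRC1, which lacks a CBX subunit, places H2AK119ub without H3K27me3, and H3K27me3 can also spread thinly over gene-poor chromatin. H3K4me3 marks the starts of active or poised genes, H3K27ac marks active promoters and enhancers, and SUZ12 is a core subunit of PRC2.

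Promoter sequences of 1 gene of each kind are shown first, because CG content separated H3K27me3 alone from the other classes. Each is the first gene of its class, by the width rule given below, that has a RefSeq entry in the table used. Capitals mark the C and G of every CG dinucleotide. They are the 250 bases before the RefSeq start site, 5′ to 3′ on the gene's strand, from GRCh38.p14. The IRX4 window (chr5:1886946-1887195, minus strand) was covered over all 250 bases by both marks in all 6 pairs. The PLEKHG2 window (chr19:39412419-39412668, plus strand) had 68 to 250 bases under H2AK119ub and 0 under H3K27me3. The SLC17A6 window (chr11:22338131-22338380, plus strand) had 0 bases under H2AK119ub and all 250 under H3K27me3.
IRX4: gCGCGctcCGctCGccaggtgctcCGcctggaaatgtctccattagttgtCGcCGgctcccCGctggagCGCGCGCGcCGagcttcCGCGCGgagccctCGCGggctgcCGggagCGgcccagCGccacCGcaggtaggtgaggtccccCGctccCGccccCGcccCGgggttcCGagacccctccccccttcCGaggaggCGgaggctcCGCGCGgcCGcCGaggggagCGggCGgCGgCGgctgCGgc
PLEKHG2: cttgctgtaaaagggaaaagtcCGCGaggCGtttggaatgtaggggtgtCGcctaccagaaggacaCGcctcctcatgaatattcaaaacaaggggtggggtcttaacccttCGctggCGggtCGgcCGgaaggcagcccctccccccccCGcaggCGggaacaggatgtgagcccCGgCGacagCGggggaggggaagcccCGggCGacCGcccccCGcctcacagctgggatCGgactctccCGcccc
SLC17A6: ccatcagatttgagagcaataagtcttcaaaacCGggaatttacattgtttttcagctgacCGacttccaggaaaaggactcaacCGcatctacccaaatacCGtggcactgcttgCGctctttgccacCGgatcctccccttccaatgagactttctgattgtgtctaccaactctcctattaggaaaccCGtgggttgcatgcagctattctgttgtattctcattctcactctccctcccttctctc
IRX4 is a homeobox transcription factor of the heart, PLEKHG2 a guanine nucleotide exchange factor, and SLC17A6 a vesicular glutamate transporter of neurons. The windows hold 39 CG dinucleotides for IRX4, 20 for PLEKHG2 and 7 for SLC17A6. Over the promoters of each class held in all 6 pairs, the median in this window was 20 for both marks, 25 for H2AK119ub alone and 2 for H3K27me3 alone. The higher count of IRX4 than of PLEKHG2 is thus not the order of their classes. Of 15345 protein-coding promoters matched to RefSeq by symbol, 96.9% held at least 1 CG in this window and 69.3% held at least 10, with a median of 17. CG reads the same on both strands. The start used for IRX4 in the promoter classes below, the GENCODE canonical one, lies within the same H2AK119ub and H3K27me3 domain.

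The lists differed in how much they covered. After keeping peaks with a log2 fold over input above 1 and an FDR under 0.05, H2AK119ub libraries held 43271 to 56402 peaks over 42.0 to 91.7 Mb, and H3K27me3 libraries 78999 to 179298 peaks over 48.8 to 248.8 Mb. ChIP reads inside these peaks numbered 1330926 to 3099221 for H2AK119ub and 1085365 to 10545826 for H3K27me3. The H3K27me3 lists labelled replicate 1 covered 174.6 to 248.8 Mb, and those labelled replicate 3 covered 48.8 to 95.4 Mb, with no overlap between these ranges. The study made its replicates in complete batches, and replicate number is taken here as the batch, which the labels do not state. The input library of each line carries a replicate number other than 1 or 3. Each main result below is also given by replicate number where it moved with it. Within a mark the Jaccard index of covered bases between libraries was 0.294 to 0.408 for H2AK119ub and 0.149 to 0.417 for H3K27me3. All 4 lists of a line were called against 1 input library, and input counts were equal at 100% of the peaks with identical borders. As a check of the cell line, both replicates of H3K4me3 marked the promoters of DPPA2, DPPA4, VIM and KRT18 in all 3 lines, though not that of KRT8, and in no line those of PTPRC, CD3E, SFTPC, ALB or MYH6.

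H3K27me3 lay over a minority of the H2AK119ub bases, though over more of them than its share of the genome. The share of H2AK119ub bases under H3K27me3 was 24.5% and 23.4% in shDPPA2 (replicates 1 and 3), 27.1% and 15.2% in shDPPA4, and 21.5% and 21.1% in shDPPA2+4. The share of the whole genome that the same H3K27me3 lists covered was 7.21% and 3.25%, 8.47% and 1.66%, and 5.94% and 2.59% in the same order. The ranges did not overlap, and the mean was 22.1% ± 4.06 of H2AK119ub bases against 4.85% of the genome (SD, n = 6 pairs). The difference of 17.3 percentage points had the same sign in 6 of 6 pairs (exact two-sided sign-flip permutation test, p = 0.0312, the smallest 6 pairs can give). Adjusted over the 10 results given this exact test, that p becomes 0.0521, here and wherever p = 0.0312 is given for one of them, so none of the 10 passed 0.05 after adjustment. The study calls its ChIP-seq replicates biological, and the labels do not say whether they were separate cultures.

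Seen from the other side, a smaller share of H3K27me3 lay under H2AK119ub. The share of H3K27me3 bases under H2AK119ub was 4.86% and 13.8% in shDPPA2, 8.76% and 15.0% in shDPPA4, and 11.3% and 15.8% in shDPPA2+4. The share of H2AK119ub under H3K27me3 exceeded it in 6 of 6 pairs, by 10.5 percentage points on average (p = 0.0312, exact sign-flip test), though by only 0.147 points in shDPPA4 replicate 3. The call was lost with no fold filter (9.77 points, exact p = 0.0625), with peaks of at least 1000 bp (4.03 points, exact p = 0.469) and with the other replicate's H3K27me3 list (12.1 points, exact p = 0.156). Since the shared bases are the same, the ratio of the 2 shares is the ratio of the covered bases, and H3K27me3 covered 1.01 to 5.05 times as many bases as H2AK119ub. Among replicate 1 pairs the difference averaged 16.1 points, and among replicate 3 pairs 5.00 points.

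**Figure D1:**
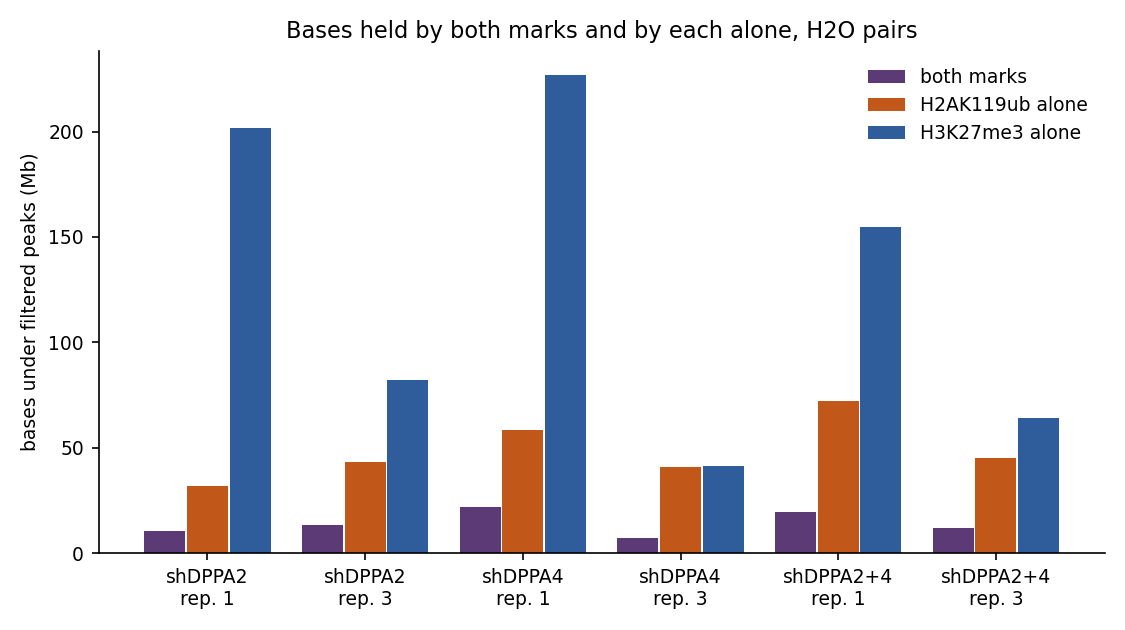
Bases (Mb, vertical axis) under both marks, under H2AK119ub alone and under H3K27me3 alone in each of the 6 H2O pairs; 1 bar is 1 pair of libraries. Bases under both marks range from 7.33 to 21.8 Mb and are the smallest class in every pair, while H3K27me3 alone ranges from 41.5 to 227.0 Mb.

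In megabases, both marks held 10.3 and 13.1 Mb in shDPPA2, 21.8 and 7.33 Mb in shDPPA4, and 19.7 and 12.01 Mb in shDPPA2+4. H2AK119ub alone held 31.7 to 72.0 Mb, and H3K27me3 alone 41.5 to 227.0 Mb. The overlap was of like size between unmatched libraries. The Jaccard index between the marks was 0.0423 to 0.0992 for matched pairs, with a median of 0.0808, and 0.0559 to 0.0838 between libraries of another line and replicate number, with a median of 0.0757. Libraries of different lines were called against different inputs, and 10.6 to 38.2% of H2AK119ub bases lay under H3K27me3 of another line and replicate number (median 22.1%). Libraries of 1 mark from different lines shared more, with a median of 51.9% of bases for H2AK119ub and 47.1% for H3K27me3.

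H3K27me3 peaks that coincided with H2AK119ub were wider than those that did not. A peak was called coincident when at least 25% of its bases lay under the other mark, and solitary when none did. Coincident H3K27me3 peaks averaged 2827 and 1151 bp in shDPPA2, 2914 and 882 bp in shDPPA4, and 1806 and 947 bp in shDPPA2+4. Solitary H3K27me3 peaks averaged 1413 and 675 bp, 1200 and 565 bp, and 863 and 585 bp in the same order. Within every library the coincident peaks were wider, by 0.91 on the log2 scale on average (6 of 6, p = 0.0312, exact sign-flip test), a ratio of 1.901 ± 0.334 (SD, n = 6). The log2 ratio averaged 1.11 in replicate 1 and 0.70 in replicate 3 libraries. For H2AK119ub peaks the log2 ratio of mean widths, coincident over solitary, was 0.15 and 0.21 in shDPPA2, -0.02 and 0.32 in shDPPA4, and 0.03 and 0.28 in shDPPA2+4 (mean 0.16, exact p = 0.0625, 5 of 6 positive). A wider peak has more chances to be touched by the other mark. With 1 bp of overlap counted as coincident the H3K27me3 log2 ratio was 1.05, and with 50% of the peak it was 0.75.

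**Figure D2:**
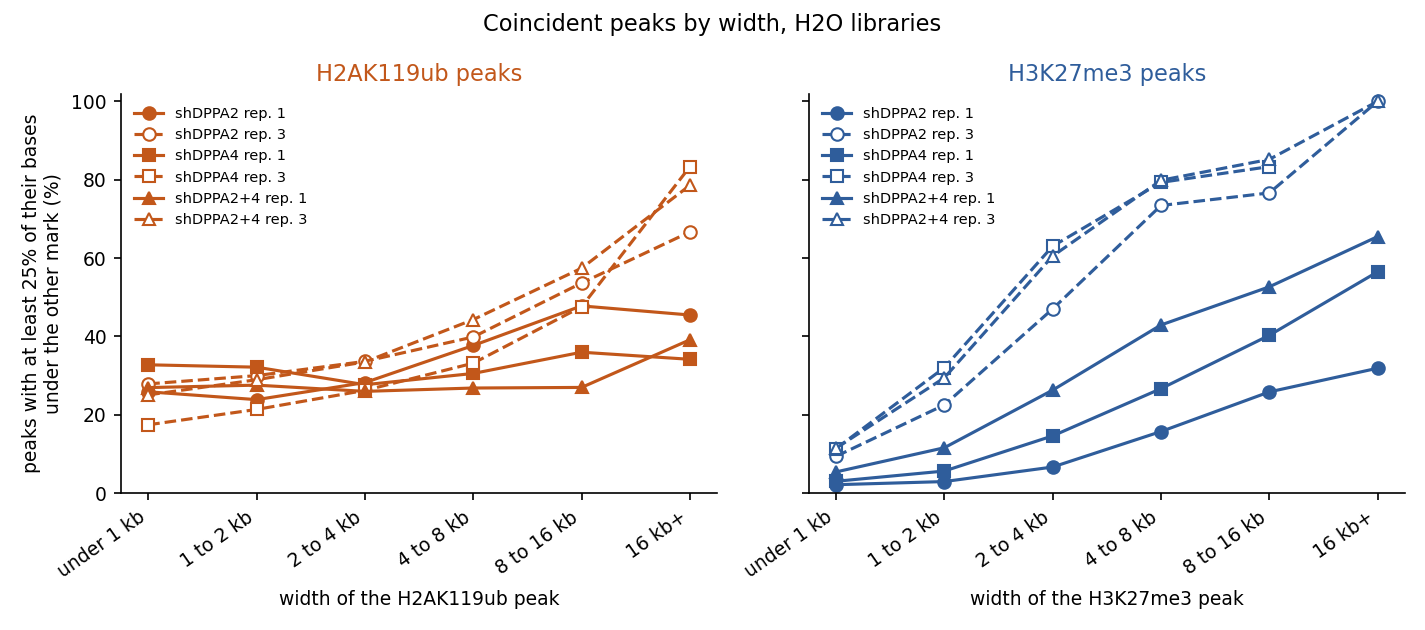
Percent of peaks with at least 25% of their bases under the other mark (vertical axis), by peak width class (horizontal axis), for H2AK119ub peaks on the left and H3K27me3 peaks on the right. Each line is 1 H2O library; filled symbols are replicate 1 and open symbols replicate 3, and the H3K27me3 lines rise in all 6 libraries, from 2.13 to 11.4% under 1 kb to 25.8 to 85.2% at 8 to 16 kb.

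By width class, 7.12% ± 4.16 of H3K27me3 peaks under 1 kb were coincident, 17.3% ± 12.4 of those of 1 to 2 kb, 36.3% ± 23.9 at 2 to 4 kb, 53.0% ± 28.3 at 4 to 8 kb and 60.6% ± 24.8 at 8 to 16 kb (SD, n = 6 libraries). At 4 to 8 kb the 3 replicate 1 libraries lay at 15.7 to 42.9% and the 3 replicate 3 libraries at 73.4 to 79.8%. The class of 16 kb and over held 1 to 262 peaks in the 5 libraries that had any, and is given only in the plot of coincident peaks by width. Of H2AK119ub peaks, 26.0% ± 4.98 were coincident under 1 kb, 29.2% ± 3.48 at 2 to 4 kb and 44.9% ± 11.4 at 8 to 16 kb, the last class holding 82 to 508 peaks per library. In replicate 1 libraries the H2AK119ub share was 25.9% under 1 kb and 47.8% at 8 to 16 kb in shDPPA2, 32.7% and 36.0% in shDPPA4, and 26.93% and 26.97% in shDPPA2+4. In replicate 3 libraries it was 17.4 to 27.9% under 1 kb and 47.6 to 57.4% at 8 to 16 kb. In all, 26.7% ± 4.19 of H2AK119ub peaks and 10.2% ± 4.45 of H3K27me3 peaks were coincident. Those H3K27me3 peaks held 16.4% ± 5.41 of H3K27me3 bases and 19.2% ± 5.40 of the reads in peaks.

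Coincident H3K27me3 peaks were also denser in reads. They held 37.0 and 26.8 reads per kb in shDPPA2, 53.7 and 24.7 in shDPPA4, and 45.8 and 25.5 in shDPPA2+4, against 26.7 and 22.3, 39.6 and 21.5, and 36.8 and 22.3 reads per kb in solitary peaks. The mean log2 ratio was 0.31 (6 of 6, p = 0.0312, exact sign-flip test), with 0.41 in replicate 1 and 0.22 in replicate 3 libraries. H2AK119ub peaks had a mean log2 ratio of density of 0.01, with a range of -0.10 to 0.10 (p = 0.75, exact sign-flip test). This ratio moved with replicate number, averaging -0.053 in replicate 1 and 0.074 in replicate 3 libraries, and the 2 groups did not overlap. Its direction also changed with the settings. Peaks with no input read made up 10.1% ± 4.82 of coincident and 18.5% ± 6.13 of solitary H3K27me3 peaks, and the part of this in the density ratio was not tested. Median width did not separate the marks, at 700 and 800, 1100 and 700, and 1100 and 800 bp for H2AK119ub against 1200 and 600, 900 and 500, and 700 and 500 bp for H3K27me3 (p = 0.406, exact sign-flip test, H2AK119ub wider in 5 of 6 pairs).

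The 3 kinds of bases differed in sequence, position and other marks. Bases under both marks had 29.7 ± 3.26 CG dinucleotides per kb, bases of H2AK119ub alone 33.8 ± 2.24 and bases of H3K27me3 alone 10.2 ± 0.565, against 10.0 per kb over the genome (SD, n = 6 pairs). GC content was 50.2%, 55.4% and 42.1% in the same order, and 40.9% over the genome. Relative to their C and G content, bases under both marks had the most CG: the observed over expected ratio was 0.471 ± 0.0362, against 0.440 ± 0.0263 for H2AK119ub alone and 0.230 ± 0.00836 for H3K27me3 alone. Promoter windows, 1500 bp to each side of a start, took up 22.4% of bases under both marks, 30.2% of H2AK119ub alone and 1.77% of H3K27me3 alone, against 1.96% of the genome. H3K27me3 alone was therefore close to the genome in promoter and CG content, and 58.7% ± 0.426 of it was intergenic, against 54.9% of the genome. Each of these differences between classes had the same sign in 6 of 6 pairs (exact sign-flip tests, p = 0.0312, adjusted p = 0.0312 over 39 comparisons of 13 features).

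**Figure D3:**
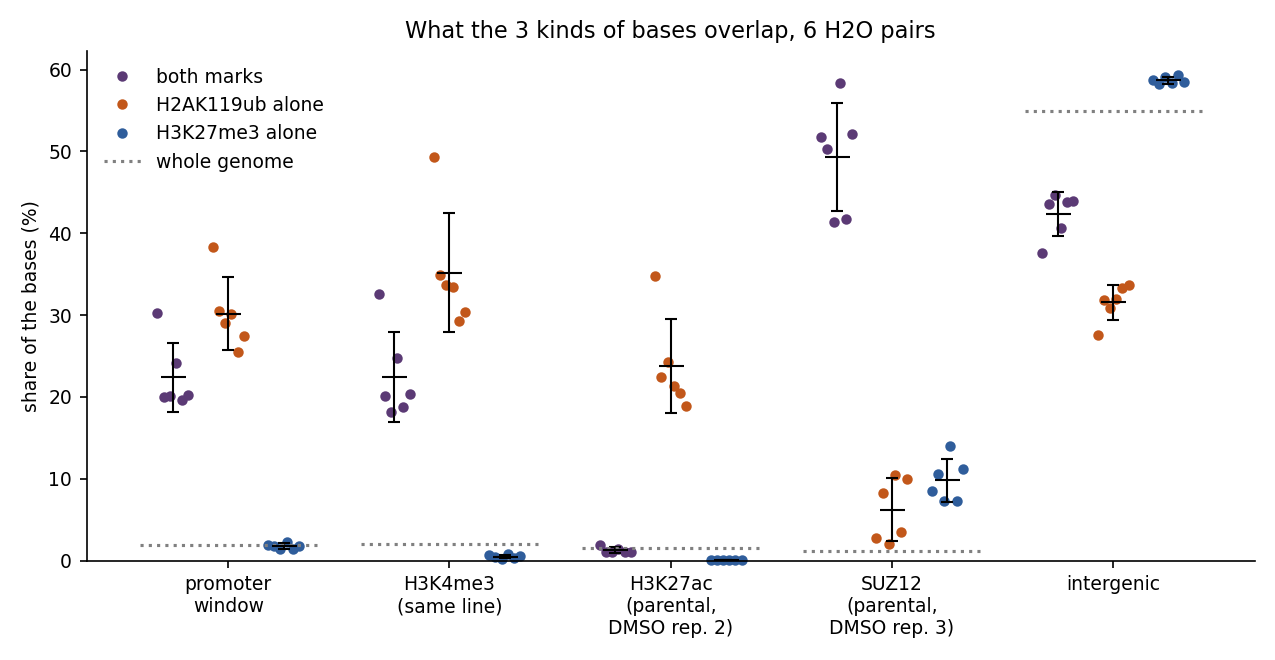
Share of the bases (%, vertical axis) under both marks, H2AK119ub alone and H3K27me3 alone that lie in promoter windows, under H3K4me3 of the same line, under H3K27ac or SUZ12 of parental cells, or between genes. Points are the 6 H2O pairs, bars the mean ± SD and dotted lines the whole genome; SUZ12 is at 49.3% of bases under both marks and 6.19% of H2AK119ub alone, and H3K27ac at 1.28% and 23.7% by the replicate 2 list drawn here (19.1% and 58.3% by replicate 4, which is not drawn).

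H3K27ac covered more of H2AK119ub alone than of the bases under both marks, and SUZ12 covered more of the bases under both marks. H3K27ac in parental cells given DMSO for 1 day (replicate 2) lay over 1.28% ± 0.366 of bases under both marks, over 23.7% ± 5.72 of H2AK119ub alone and over 0.0609% ± 0.0221 of H3K27me3 alone, against 1.52% of the genome. In replicate 4 the shares were 19.1%, 58.3% and 1.60%, against 5.22% of the genome. Bases under both marks were thus on average below the genome by replicate 2 and above it by replicate 4. The replicate 4 list covered 153.5 Mb against 44.7 Mb for replicate 2, and it was called against another input, since only 11.8% of their 306 peaks with identical borders had equal input counts. SUZ12, from 1 library of the same parental cells, lay over 49.3% ± 6.60 of bases under both marks, 6.19% ± 3.85 of H2AK119ub alone and 9.82% ± 2.597 of H3K27me3 alone, against 1.14% of the genome. All these differences had the same sign in 6 of 6 pairs (exact sign-flip tests, adjusted p = 0.0312). The SUZ12 share moved with replicate number where a mark lay alone. It was 2.003 to 3.54% of H2AK119ub alone in replicate 1 pairs and 8.31 to 10.5% in replicate 3 pairs. For H3K27me3 alone it was 7.29 to 8.56% and 10.6 to 13.97% in the same order. For bases under both marks the ranges overlapped, at 41.3 to 51.7% and 50.3 to 58.4%. The errors are the spread over the 6 pairs, and the H3K27ac and SUZ12 lists add none of their own. Which peak caller made the SUZ12 list is not settled. H3K4me3 of the same line covered 22.5% of bases under both marks, 35.2% of H2AK119ub alone and 0.503% of H3K27me3 alone, against 1.99% of the genome.

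H3K4me3 lay over both classes of H2AK119ub peaks and covered more of the solitary ones. It covered 32.1% and 18.999% of the bases of coincident H2AK119ub peaks in shDPPA2, 17.4% and 22.95% in shDPPA4, and 17.0% and 18.3% in shDPPA2+4. It covered 50.4% and 37.7%, 34.9% and 34.95%, and 30.8% and 33.2% of the bases of solitary H2AK119ub peaks in the same order. The coincident peaks were lower by 15.9 percentage points on average, in 6 of 6 pairs (p = 0.0312, exact sign-flip test). For H3K27me3 the classes were ordered the other way, with H3K4me3 over 17.0% ± 4.86 of the bases of coincident and 0.249% ± 0.101 of the bases of solitary H3K27me3 peaks, a pair of ranges that did not overlap.

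Promoters of 20007 protein-coding genes were classed next, a promoter counting as marked when at least 300 bp of its window lay under the mark. Both marks lay at 2039 and 2027 promoters in shDPPA2, 2379 and 1688 in shDPPA4, and 2280 and 1963 in shDPPA2+4. H2AK119ub alone lay at 8182 and 7977, 9113 and 7703, and 9278 and 7429 promoters, and H3K27me3 alone at 1298 and 727, 1201 and 532, and 1013 and 628. Promoters with H2AK119ub alone thus outnumbered those with H3K27me3 alone by 7380.5 on average (8280 ± 755 against 900 ± 317, SD, n = 6, exact sign-flip p = 0.0312). Counted in promoters rather than bases, most with H3K27me3 also had H2AK119ub, though the marks need not overlap within a window. The share was 69.2 to 76.0% of H3K27me3 promoters in 4 pairs, 66.5% in shDPPA4 replicate 1 and 61.1% in shDPPA2 replicate 1. H2AK119ub marked 46.9 to 57.8% of all promoters, so H3K27me3 promoters exceeded this by 18.7 percentage points on average (6 of 6 pairs, exact sign-flip test, p = 0.0312). That test is not one of the 10 results, and its p is not adjusted. The excess averaged 10.2 points in the replicate 1 pairs and 27.2 points in the replicate 3 pairs.

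A class was held in all 6 pairs at 1244 promoters for both marks (6.22% of all), 4580 for H2AK119ub alone (22.9%), 105 for H3K27me3 alone (0.525%) and 4907 for neither (24.5%). The other 9171 promoters changed class between pairs. H3K4me3 in all 3 lines lay at 91.4% of promoters with both marks, 96.3% of those with H2AK119ub alone and 1.905% of those with H3K27me3 alone, against 68.9% of all promoters. H3K27ac (replicate 2) lay at 9.16% of promoters with both marks and 92.5% of those with H2AK119ub alone, and at 0 of the 105 with H3K27me3 alone, against 58.9% of all. With the larger H3K27ac list of replicate 4 these shares were 68.5%, 99.4% and 8.57%, against 73.6% of all. SUZ12 lay at 97.3%, 1.66% and 31.4% in the same order, against 12.2% of all. The median CG density of the windows was 53.4 per kb for both marks, 53.5 for H2AK119ub alone and 10.6 for H3K27me3 alone, against 37.7 for all promoters. Promoters with both marks and with H2AK119ub alone thus had close medians of CG density and stood far apart in SUZ12, and in H3K27ac by an amount that depended on the list.

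Among the 8 promoters with the widest domains of both marks, IRX4, UNCX, SP9, EVX2, BHLHE41 and MECOM encode transcription factors, GDNF a growth factor and GAD1 an enzyme. Width here is the summed length of the peaks that touch the promoter window, and the 8 promoters with the largest smaller mean of the 2 marks are named. IRX4 (chromosome 5, start 1882925) had 16600 and 23400 bp of H2AK119ub in shDPPA2, 24700 and 19900 bp in shDPPA4, and 22100 and 30900 bp in shDPPA2+4. Its H3K27me3 spanned 27600 and 15600, 31900 and 12700, and 16200 and 7300 bp in the same order. H2AK119ub at IRX4 was wider than H3K27me3 in 4 of 6 pairs, and the ranges overlapped. BHLHE41 (chromosome 12, start 26125037), a basic helix-loop-helix repressor of the circadian clock, had 16950 ± 6570 bp of H2AK119ub and 36550 ± 37614 bp of H3K27me3 on average, H3K27me3 reaching 108700 bp in shDPPA4 replicate 1 and 10300 to 41400 bp in the other 5.

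GDNF (chromosome 5, start 37840041), a growth factor of neurons, had 10500 to 15400 bp of H2AK119ub and 12300 to 40800 bp of H3K27me3. GAD1 (chromosome 2, start 170816887), the enzyme that makes GABA, had the most even H2AK119ub domain of the 8, at 12983 ± 581 bp, beside H3K27me3 of 5200 to 15800 bp. The other 4 were UNCX, SP9 and EVX2, homeobox and zinc finger factors of the embryo, and MECOM, a zinc finger factor of blood stem cells, with mean widths of 10700 to 22000 bp for H2AK119ub and 10950 to 11417 bp for H3K27me3. At all 8 promoters H3K27me3 was narrower in the replicate 3 library than in the replicate 1 library of every line. Input reads per kb of the peaks within 100 kb were 1.17 to 2.16 times the mean of their list at these 8 promoters.

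**Figure D4:**
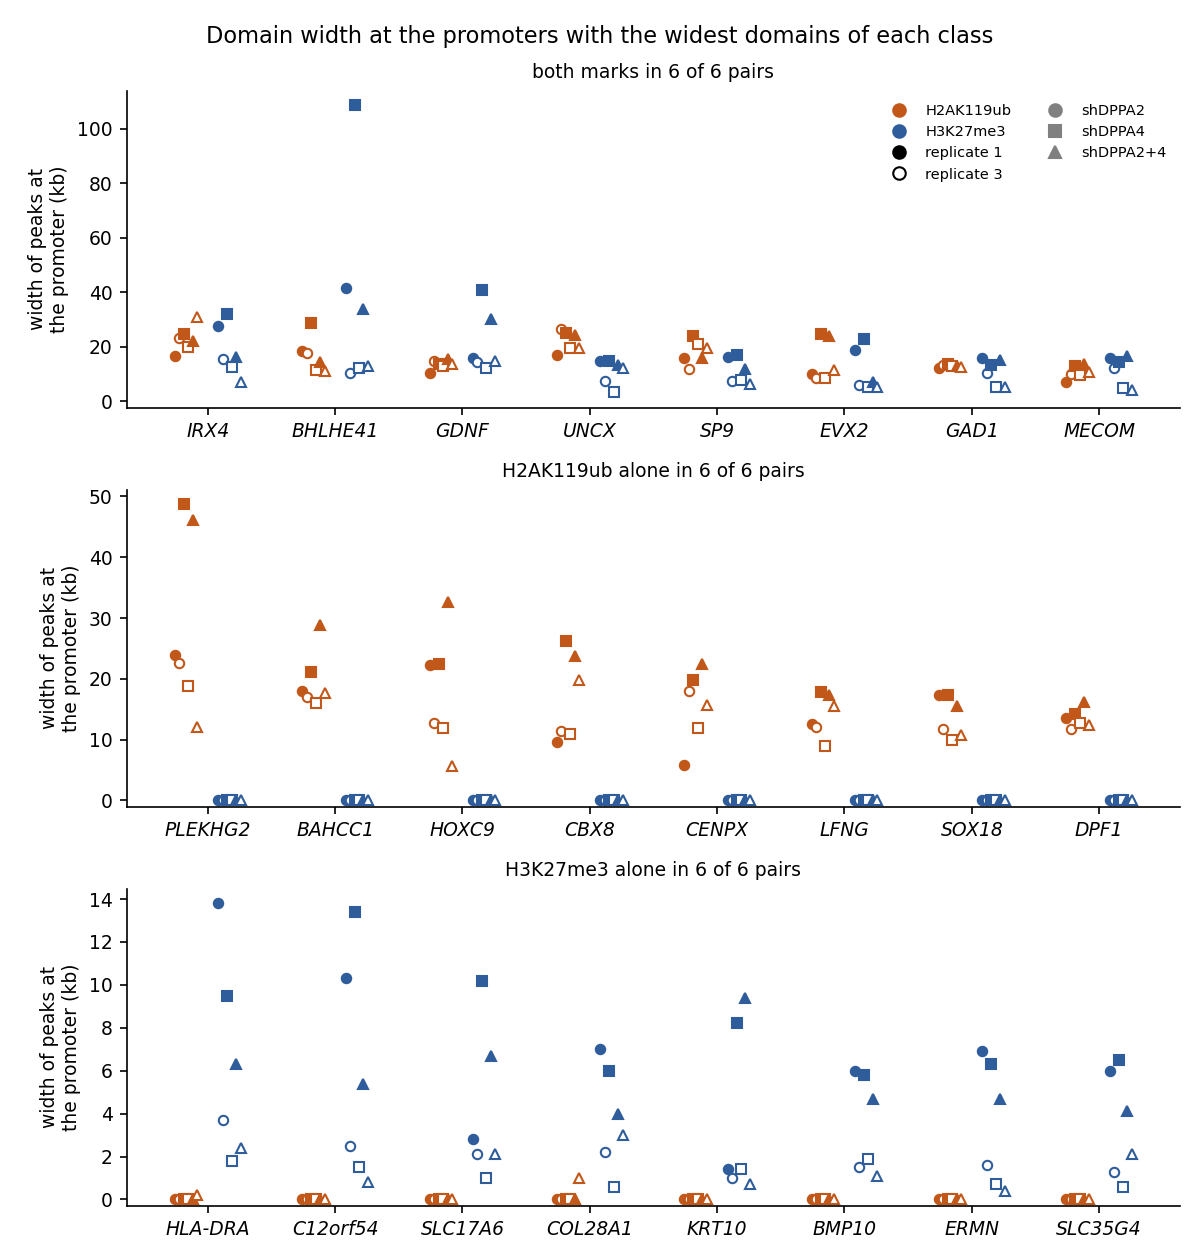
Summed width of the peaks at the promoter (kb, vertical axis) for the 8 named promoters of each class. Each symbol is 1 H2O library (shape for line, filled for replicate 1, open for replicate 3); H3K27me3 lies at 0 in every library at the 8 promoters of the middle panel, where H2AK119ub at PLEKHG2 reaches 48700 bp.

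H2AK119ub alone reached comparable widths. PLEKHG2 (chromosome 19, start 39412669) had 23900 and 22600 bp in shDPPA2, 48700 and 18800 bp in shDPPA4, and 46100 and 12100 bp in shDPPA2+4, with 0 bp of H3K27me3 in all 6. BAHCC1 (chromosome 17, start 81395457), a chromatin protein known to bind H3K27me3, had 16100 to 28800 bp. CBX8 (chromosome 17, start 79797077), a PRC1 subunit that itself reads H3K27me3, had 9600 to 26200 bp. HOXC9 (chromosome 12, start 54000161) had 5600 to 32600 bp, SOX18 (chromosome 20, start 64049639), a factor of blood vessel development, 10000 to 17400 bp, and LFNG (chromosome 7, start 2519774), a glycosyltransferase that modifies Notch, 9000 to 17900 bp. CENPX, a centromere and DNA repair protein, and DPF1, a subunit of neuronal BAF complexes, averaged 15617 ± 5957 and 13483 ± 1583 bp. Input reads per kb of the peaks within 100 kb were 3.03 ± 0.178 times the list mean at PLEKHG2 and 2.25 ± 0.0670 times at DPF1, both on chromosome 19, and 1.10 to 1.52 times at the other 6. The part of this in the widths was not tested.

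The widest domains at promoters with H3K27me3 alone were narrower, with means of 3433 to 6250 bp. HLA-DRA (chromosome 6, start 32439887), an antigen-presenting class II protein, had 0 bp of H2AK119ub in 5 libraries and 200 bp in shDPPA2+4 replicate 3. Its H3K27me3 spanned 13800 and 3700 bp in shDPPA2, 9500 and 1800 bp in shDPPA4, and 6300 and 2400 bp in shDPPA2+4. SLC17A6 (chromosome 11, start 22338381) had no H2AK119ub and 1000 to 10200 bp of H3K27me3. BMP10 (chromosome 2, start 68871397), a growth factor of the heart, had none and 1100 to 6000 bp, and KRT10 (chromosome 17, start 40822614), a keratin of differentiated skin, none and 700 to 9400 bp. COL28A1, a collagen, C12orf54, ERMN, a cytoskeletal protein of oligodendrocytes, and SLC35G4 completed the 8, with mean H3K27me3 widths of 3433 to 5650 bp. COL28A1 also had 1000 bp of H2AK119ub in shDPPA2+4 replicate 3, 128 bp of it inside the promoter window. At all 8 promoters the widest domains were in replicate 1 libraries.

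The 20 gene lists, chosen with earlier results of these data known, were read against the same classes. Both marks were held in 6 of 6 pairs most often in the lists of developmental transcription factors, Wnt, axon guidance and BMP genes, at 31.6 to 36.0%, and next in mesenchymal (17.4%) and HOX genes (12.8%). Of 161 developmental transcription factors, 58 (36.0%) had both marks in 6 of 6 pairs, 41 (25.5%) H2AK119ub alone and 0 H3K27me3 alone, against 6.22%, 22.9% and 0.525% of all promoters. Of 48 Wnt pathway ligands, receptors and antagonists 16 had both marks and 15 H2AK119ub alone, and of 49 axon guidance genes 16 and 17. GATA6, a factor of endoderm and heart, had mean widths of 9900 bp (H2AK119ub) and 7067 bp (H3K27me3), and WNT1, a ligand of the midbrain, 9567 and 4000 bp. PAX6 and DLX1, factors of the eye and forebrain, had H2AK119ub alone in 6 of 6 pairs, with mean widths of 5483 bp at PAX6 and 9717 bp at DLX1. Of 19 BMP ligands and antagonists 6 had both marks, 3 H2AK119ub alone and BMP10 H3K27me3 alone. In the developmental, Wnt, axon guidance and BMP lists the median CG density was 54.2 to 65.5 per kb, against 37.7 for all promoters.

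**Figure D5:**
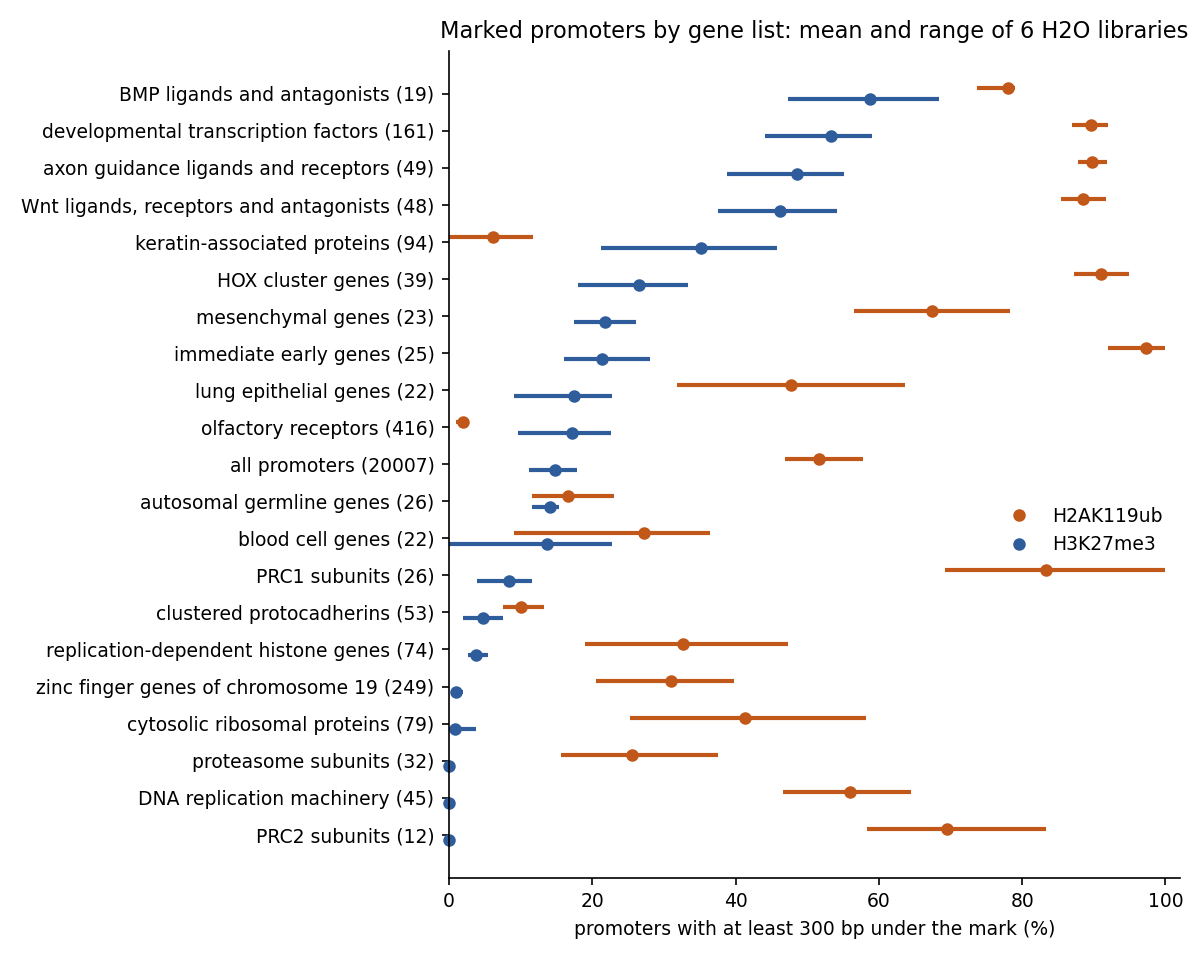
Percent of the promoters of each gene list (number of promoters in parentheses) with at least 300 bp under H2AK119ub or H3K27me3 (horizontal axis), as the mean (point) and range (line) of 6 H2O libraries. Keratin-associated proteins (6.21% H2AK119ub, 35.1% H3K27me3) and olfactory receptors (1.96%, 17.1%) are the 2 lists with more H3K27me3 than H2AK119ub.

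The HOX clusters, which set position along the body axis, split by cluster. Of 9 HOXD promoters, 3 had both marks in 6 of 6 pairs (HOXD1, HOXD12 and HOXD13), none had H2AK119ub alone, and on average 75.9% had both marks in a pair. Of 9 HOXC promoters, 7 had H2AK119ub alone in 6 of 6 pairs and none both, with 87.0% carrying H2AK119ub alone on average. HOXA had 1 of 11 with both marks (HOXA13) and 5 with H2AK119ub alone, and HOXB 1 of 10 (HOXB8) and 5. Over all promoters both marks were held in 6 of 6 pairs at 6.22% and H2AK119ub alone at 22.9%. A single HOXA or HOXB promoter with both marks is near that background. For the means per pair, the background over all promoters was 10.3% for both marks and 8280 of 20007 promoters for H2AK119ub alone. HOXD13, the factor of the digits, had 11800 bp of H2AK119ub and 10533 bp of H3K27me3 on average. HOXC9 had 17950 bp of H2AK119ub and no H3K27me3. Neighbouring promoters of a cluster can share a domain, so their counts are not independent.

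Genes of the growth response and of the Polycomb complexes themselves often carried H2AK119ub without H3K27me3, with 22.9% of all promoters as the background. Of 25 immediate early genes, which respond first to growth signals, 15 had H2AK119ub alone in 6 of 6 pairs, among them FOS (mean H2AK119ub width 3383 bp), JUN (4183 bp) and MYC (3117 bp). EGR2, EGR4 and KLF4 had both marks. H2AK119ub marked 97.3% of this list on average and H3K27me3 21.3%. Of 26 PRC1 subunits 15 had H2AK119ub alone, including CBX2, CBX6, CBX7, CBX8, RING1 and RNF2, the last 2 encoding the ubiquitin ligases that place the mark. AUTS2 was the PRC1 gene with both marks. Of 12 PRC2 subunits 6 had H2AK119ub alone, EZH2 among them with a mean width of 2317 bp, and H3K27me3 marked none in any library. The median CG density was 70.3 per kb at immediate early, 61.6 at PRC1 and 57.4 at PRC2 promoters, against 37.7 for all promoters. The part of CG density in these counts was not tested. Among housekeeping lists H2AK119ub marked 55.9% of 45 DNA replication genes, 41.4% of 79 ribosomal proteins and 25.5% of 32 proteasome subunits, against 51.7% of all promoters. H3K27me3 marked 0%, 0.844% and 0% of these lists, against 14.8% of all promoters.

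Keratin-associated proteins and olfactory receptors, which lie in gene clusters, had more H3K27me3 than H2AK119ub. Of 94 keratin-associated proteins, components of hair, H2AK119ub marked 6.21% and H3K27me3 35.1%, against 51.7% and 14.8% of all promoters. This list had 9 promoters of H3K27me3 alone in 6 of 6 pairs (9.57%, against 0.525% of all), among them KRTAP3-2 (mean H3K27me3 width 3200 bp) and KRTAP4-1 (2833 bp). Of 416 olfactory receptors, 1 had both marks in 6 of 6 pairs (OR4D2), 1 H2AK119ub alone (OR1F1), 7 H3K27me3 alone (1.68%) and 278 neither (66.8%, against 24.5% of all). The median CG density was 9.03 per kb for keratin-associated proteins and 6.45 for olfactory receptors, against 37.7 for all promoters. Of 23 mesenchymal genes, 4 had both marks (FN1, PDGFRA, SNAI2 and CDH2; 17.4%, against 6.22% of all) and 8 H2AK119ub alone, including VIM, COL1A1 and SNAI1 (34.8%, against 22.9% of all). Of 22 lung epithelial genes, HOPX had both marks and EPCAM, KRT18, ABCA3 and FOXJ1 had H2AK119ub alone, at 4.55% and 18.2% close to the shares of all promoters. Of 22 blood cell genes LCK had H2AK119ub alone (4.55%). Among 26 autosomal germline genes, NOBOX had H3K27me3 alone and 15 had neither mark (57.7%). Zinc finger genes of chromosome 19 (249), clustered protocadherins (53) and histone genes (74) had H2AK119ub at 30.9%, 10.1% and 32.7% of promoters and H3K27me3 at 0.937%, 4.72% and 3.83%.

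Over the whole genome, 1.62 Mb lay under both marks in all 6 pairs, 9.06 Mb under H2AK119ub in all 6 and H3K27me3 in none, and 2.87 Mb under H3K27me3 in all 6 and H2AK119ub in none. Of the 14.2 Mb with H2AK119ub in all 6 libraries, 63.7% had H3K27me3 in none and 11.4% in all 6. Of the 10.0 Mb with H3K27me3 in all 6, 28.6% had H2AK119ub in none and 16.1% in all 6. The H2AK119ub bases thus lay mostly at 0 H3K27me3 libraries, with 2.96 to 11.4% at each other number. Those of H3K27me3 were spread more evenly, falling from 28.6% at 0 H2AK119ub libraries to 7.39% at 4 and rising to 16.1% at 6. The longest stretch with both marks was 10400 bp at GDNF (chromosome 5, 37832701 to 37843100), followed by 8600 bp over BHLHE41 (chromosome 12, 26121101 to 26129700), 7100 and 5400 bp at IRX4 and 6200 bp at SP9, all overlapping the named gene. The longest with H2AK119ub alone was 9500 bp at SOX18 (chromosome 20, 64044001 to 64053500), and others among the longest were 8700 bp at LFNG, 8300 bp overlapping DLL3, a Notch ligand, and 8100 bp at NCCRP1, both on chromosome 19.

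Stretches of H3K27me3 alone were shorter. The longest was 2000 bp (chromosome 19, 39577001 to 39579000), 23524 bp from the nearest protein-coding start, that of LGALS13, and the next 4 were 1800 to 1900 bp long and 25159 to 62097 bp from the starts of PDE5A, COCH, OLFM4 and LGALS13. None of the 5 overlapped a protein-coding gene. In number there were 3898 stretches with both marks, 13237 with H2AK119ub alone and 11459 with H3K27me3 alone, with mean lengths of 415, 685 and 250 bp. SUZ12 lay over 88.6% of the bases with both marks in all pairs, 1.76% of those with H2AK119ub alone and 19.7% of those with H3K27me3 alone. H3K27ac lay over 1.52%, 46.1% and 0.0941% in the same order by replicate 2, and over 43.1%, 87.7% and 2.53% by replicate 4. Input reads per kb were 2.40 to 3.06 times the list mean around DLL3 and 2.12 to 3.02 times around LGALS13, which lie near each other and near PLEKHG2 on chromosome 19. They were 1.65 to 2.21 times the list mean around NCCRP1, 1.59 to 2.37 around COCH, 1.24 to 2.00 around PDE5A and 0.97 to 1.73 around OLFM4. The part of input in these stretches was not tested.

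Doxycycline was the last comparison, asking whether the 2 marks overlapped more once the hairpins were induced. The share of H2AK119ub bases under H3K27me3 was 30.2% and 51.6% with DOX in shDPPA2, against 24.5% and 23.4% with H2O. It was 23.4% and 52.2% with DOX in shDPPA4, against 27.1% and 15.2% with H2O, and 22.0% and 42.1% with DOX in shDPPA2+4, against 21.5% and 21.1% with H2O. The mean difference was 14.8 percentage points (5 of 6 pairs positive, exact sign-flip p = 0.0938). It averaged 28.8 points in the 3 replicate 3 pairs and 0.807 points in the 3 replicate 1 pairs, so most of it lay under 1 replicate number. H3K27me3 of replicate 3 covered 217.1 to 319.1 Mb with DOX and 48.8 to 95.4 Mb with H2O. With all libraries brought to equal coverage, the difference was 4.66 points (3 of 6 pairs positive, exact p = 0.25). DOX and the larger replicate 3 lists cannot be told apart in the replicate 3 pairs.

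The bases of a class held in all 6 H2O pairs were also read in the 6 DOX pairs. Of the bases with both marks in H2O, 86.3% ± 6.98 had both marks with DOX (75.0 to 96.1%, SD, n = 6). Of those with H2AK119ub alone, 77.8% ± 16.9 had H2AK119ub with DOX (52.5 to 97.5%) and 0.579% ± 0.556 had H3K27me3. Of those with H3K27me3 alone, 91.6% ± 3.02 had H3K27me3 with DOX and 18.0% ± 12.7 had H2AK119ub. H3K27me3 thus covered at most 1.60% of the H2AK119ub-alone bases in any DOX library. The H2AK119ub shares moved with replicate number. With DOX, H2AK119ub lay over 3.09 to 13.6% of the H3K27me3-alone bases in replicate 1 and 27.7 to 29.9% in replicate 3 libraries. It lay over 80.6 to 97.5% of the H2AK119ub-alone bases in replicate 1 and 52.5 to 77.0% in replicate 3 libraries. The part of doxycycline in this was not tested.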

How the data were processed

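ChIP-seq peak lists of 12 water-treated libraries were read, with the H3K4me3 and doxycycline lists of the same lines and H3K27ac and SUZ12 lists of parental cells. The submitters' processing notes name Trim Galore 0.6.6, BWA 0.7.13, SAMtools 1.9 and Picard 2.6.0, and per the labels and methods reads were aligned to hg38 and domains were called per library with EPIC2 in bins of 100 bp against a genomic input. The deposited count columns hold whole ChIP and input reads per domain, the deposited log2 column the fold of ChIP over input, and the deposited FDR column adjusted p-values, all as the authors' caller wrote them. The methods name MACS2 for SUZ12, but the deposited SUZ12 list has the same columns as the EPIC2 lists, so which caller made it is not settled, and its shares rest on that list as it stands. The authors' exclusion list of problematic regions was not applied here, and their mouse spike-in was not used, so levels were not compared between libraries.

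Peaks with log2 fold above 1 and FDR under 0.05 on 24 chromosomes were kept, as in the methods of the study, and overlaps were counted in bases. Only reads inside peaks are known, 1085365 to 10545826 per library. Promoters were 3001 bp windows around GENCODE canonical starts of 20007 protein-coding genes. A pair was a line and a replicate number, taken as the batch since the study made replicates in complete batches. The deviations of paired libraries correlated at -0.117 to 0.00581, so the pairing comes from the line and replicate number, not from the data. Differences were tested by exact two-sided sign-flip permutation over 6 pairs, with Benjamini-Hochberg adjustment over 10 results, and over 39 comparisons for base features. Named promoters were the 8 widest of each class held in 6 of 6 pairs, at least 100 kb apart, with list members a count turns on and the 5 longest stretches of each class. Members and gene lists were chosen with earlier results of these data known, and the list members given as examples were picked after their values were seen. A few items that these rules name are not reported here. Alternatives were no fold filter, a log2 fold above 2, FDR under 1e-05, a minimum width of 1000 bp, equal coverage, other overlaps, the other replicate's H3K27me3 list, no replicate block and leaving out each pair. The overlap code was tested on simulated data. Python 3.11.15, NumPy 2.4.6, pandas 2.3.3 and matplotlib 3.10.9 were used.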

Additional observations from a re-analysis of the deposited data

Results flagged for a closer look

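The difference in median peak width, H2AK119ub minus H3K27me3, was -500 bp in shDPPA2 replicate 1 (700 bp against 1200 bp) and 200 to 400 bp in the other 5 pairs, so that 1 pair stood apart from the rest by Dixon's criterion. Of 22 groups of 6 values examined in this way 1 met the criterion, and chance alone gives about 1 in 20.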

How the results depend on the processing

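Passing or missing 0.05 refers in this section to the unadjusted p unless an adjusted p is named. Leaving out 1 pair or 1 replicate number raises the smallest possible p to 0.0625 or 0.25, so that no result could pass 0.05 there. Values then ranged between 16.7 and 18.0 points for the share of H2AK119ub under H3K27me3 over the genome share, 5.00 and 16.1 points for the difference of the 2 shares, 0.70 and 1.11 (log2) for H3K27me3 width, 0.22 and 0.41 (log2) for H3K27me3 density, 7074 and 7687 promoters for H2AK119ub alone minus H3K27me3 alone, and -16.6 and -15.2 points for H3K4me3. The log2 density ratio of H2AK119ub ranged between -0.053 and 0.074, negative without shDPPA4 replicate 3 (-0.0077), without shDPPA2+4 replicate 3 (-0.0023) and without replicate 3 (-0.053). It was -0.0015 at a log2 fold above 2 and 0.093 at equal coverage, where it passed 0.05.

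The difference of the 2 shares missed 0.05 with no fold filter (9.77 points), with peaks of at least 1000 bp (4.03) and with the other replicate's H3K27me3 list (12.1). At equal coverage it was -0.00031, which follows from making the covered bases equal. The H2AK119ub width ratio (log2) passed 0.05 with no fold filter (0.17), at a fold above 2 (0.25), with peaks of at least 1000 bp (0.28), at equal coverage (0.41), with the other replicate's list (0.15) and with 1 bp counted as coincident (0.20). After adjustment this ratio missed 0.05 with no fold filter and with peaks of at least 1000 bp (exact sign-flip tests, adjusted p = 0.0521 in each). The cause of these changes was not tested. Promoters with both marks in 6 of 6 pairs numbered 671 at a minimum of 1000 bp, and those with H3K27me3 alone 31 at that minimum and 317 in at least 5 of 6 pairs. With no replicate block, DOX minus H2O stayed at 14.8 points but passed 0.05 before adjustment (exact permutation p = 0.0281, adjusted p = 0.0563). With the other replicate's list it was 9.62 points and passed 0.05 (exact sign-flip p = 0.0312, adjusted p = 0.0446). The 3 other results run without the block kept their calls. All 6 lists of a mark come from 3 lines, and reads outside peaks are unknown, so depth was not equalised.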
